A study of Homo sapiens with 6 samples.

Results

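The classical protein tyrosine phosphatases of HEL cells were examined here, as the genes named PTPN followed by a number (non-receptor phosphatases) and PTPR followed by a letter (receptor phosphatases). HEL is a human erythroleukemia cell line. In all, 32 genes of the 31999 in the table had such a name, 17 of them receptor and 15 non-receptor genes. Pseudogenes, antisense genes and PTPRCAP, which encodes a protein that binds a phosphatase and is not one itself, were left out. PTPRQ, PTPRT, PTPRZ1, PTPN3 and PTPN21 belong to the same families and were not analysed here.

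HEL cells were transduced with lentivirus carrying a hairpin against TMIGD2, a receptor of the immunoglobulin superfamily (shTMIGD2, 3 libraries), or a control hairpin (shCtrl, 3 libraries). All transduced cells had been selected with puromycin, and the labels do not say which hairpin sequence against TMIGD2 was used. Poly(A) RNA was sequenced. CPM is a count scaled to the library total. The value used here is the authors' mean log2 CPM, a single value per gene over the 6 libraries. It was read as the log2 of a CPM averaged over the libraries, and not as an average of logs. It joins both hairpins, so it gives the level of each gene in the experiment as a whole and no comparison of shTMIGD2 with shCtrl. No value per library was used, so no level has a standard deviation, and no difference between genes has been tested.

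Protein tyrosine phosphatases remove phosphate from tyrosine and so oppose tyrosine kinases. The receptor enzymes span the membrane and carry extracellular domains of the kind found in adhesion molecules, often with a catalytic domain and a second, membrane-distal domain in tandem. The non-receptor enzymes are cytosolic or bound to internal membranes, and the domains beside their single catalytic domain, such as SH2 or FERM domains, set where they act. In blood cells CD45 (PTPRC), SHP-1 (PTPN6) and SHP-2 (PTPN11) are the members best known for setting the activity of Src family kinases, JAK kinases and cytokine receptors.

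The depth behind each level could be read from the lowest values of the table. Below 0.15 CPM, 10345 genes took values that were whole multiples of 0.00526 CPM, and 100% of them lay within 0.15 of a step. If each step is 1 counted fragment over the 6 libraries, the libraries together held about 190136000 counted fragments, or 31689000 each on average. The lowest value listed was 14 steps. With the prior of 2 counts per library that edgeR adds by default, this corresponded to 2 fragments in the 6 libraries, and 1 CPM to 178.1. A gene with no fragment would have stood at a mean log2 CPM of -3.99, so levels near that value overstate the signal, and fragments are given for the genes with few of them.

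Markers of the labelled cell line were high, in lists chosen with earlier results of these data known, so this is a description and no test of the label. Of all 31999 genes listed, 43.8% had 1 CPM or more. All 12 erythroid and megakaryocytic markers were above 1 CPM, between a mean log2 CPM of 6.16 and 10.54, with the integrin subunit gene ITGA2B at the top. Of the markers listed for T cells, 1 of 3 was above 1 CPM, with CD2 at 2.95. Among the B cell markers 2 of 4 were, with CD79A highest at 2.32, and among the monocyte markers 2 of 4, with LYZ highest at 4.40. For epithelial cells, fibroblasts and neural cells the count was 1 gene each, KRT18 (3.26), PDGFRB (1.56) and SYT1 (1.07), of 3, 5 and 5 listed. CD3D, CD3E, MS4A1, KRT5 and KRT14 had also been chosen as markers and were not analysed here. TMIGD2 itself had a mean log2 CPM of 4.08 over both groups.

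All 32 members share the signature of the family in their coding sequence, a histidine and a cysteine followed by 5 residues of any kind and an arginine, which forms the loop that holds the phosphate. It was searched in frame in the canonical transcript of each gene (GENCODE 44, GRCh38), and 40 matches were found. Every non-receptor gene held 1 match. Of the receptor genes, 8 held 2 matches, and 9, PTPRC among them, held 1. The windows printed here show the match with 1 codon on either side, 5′ to 3′ on the coding strand. The codons of histidine, cysteine and arginine are in capitals. They were chosen as the most highly expressed non-receptor and receptor genes, together with windows that differ from the rest in their letters or in their exon structure.
PTPN11, chr12:112486619-112488461 (plus strand): gtgCACTGCagtgctggaattggcCGGaca
PTPN6, chr12:6958063-6959945 (plus strand): gtgCACTGCagcgccggcatcggcCGCaca
PTPN7, chr1:202150406-202152552 (minus strand): gtcCACTGCagtgcagggattggcCGGacg
PTPRC, chr1:198742016-198742250 (plus strand): gtgCACTGCagtgctggtgttgggCGCaca
PTPRA, first match, chr20:3022210-3022707 (plus strand): gtcCACTGCagtgcaggtgtagggCGTaca
PTPRA, second match, chr20:3035931-3037172 (plus strand): gtgCACTGCagcgccggggcaggaAGGacg
PTPRU, second match, chr1:29323778-29325209 (plus strand): gtgCACTGCctaaacgggggaggaCGCagc
PTPRN, chr2:219290872-219291480 (minus strand): gtgCACTGCagtgatggtgcggggAGGacc
PTPN1, chr20:50578564-50578593 (plus strand): gtgCACTGCagtgcaggcatcggcAGGtct
PTPN2, chr18:12817192-12817221 (minus strand): atcCACTGTagtgcaggcattgggCGCtct

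PTPN6 and PTPN11 shared 25 of the 30 bases of this window, PTPRC and PTPRA (first match) 26, PTPN7 and PTPN5 27, and PTPN1 and PTPN2 23. The first and second matches shared 28 bases in PTPRF, 23 in PTPRD and 21 in PTPRA. Of the 40 windows, 34 were split by an intron, and in each of those 34 the junction lay at the same place, with 11 bases of the window before it, inside the codon that follows the cysteine. This was the case for all 25 windows of the receptor genes and for 9 of the 15 of the non-receptor genes. The windows of PTPN1, PTPN2, PTPN9, PTPN13, PTPN14 and PTPN20 lay within 1 exon.

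**Figure D1:**
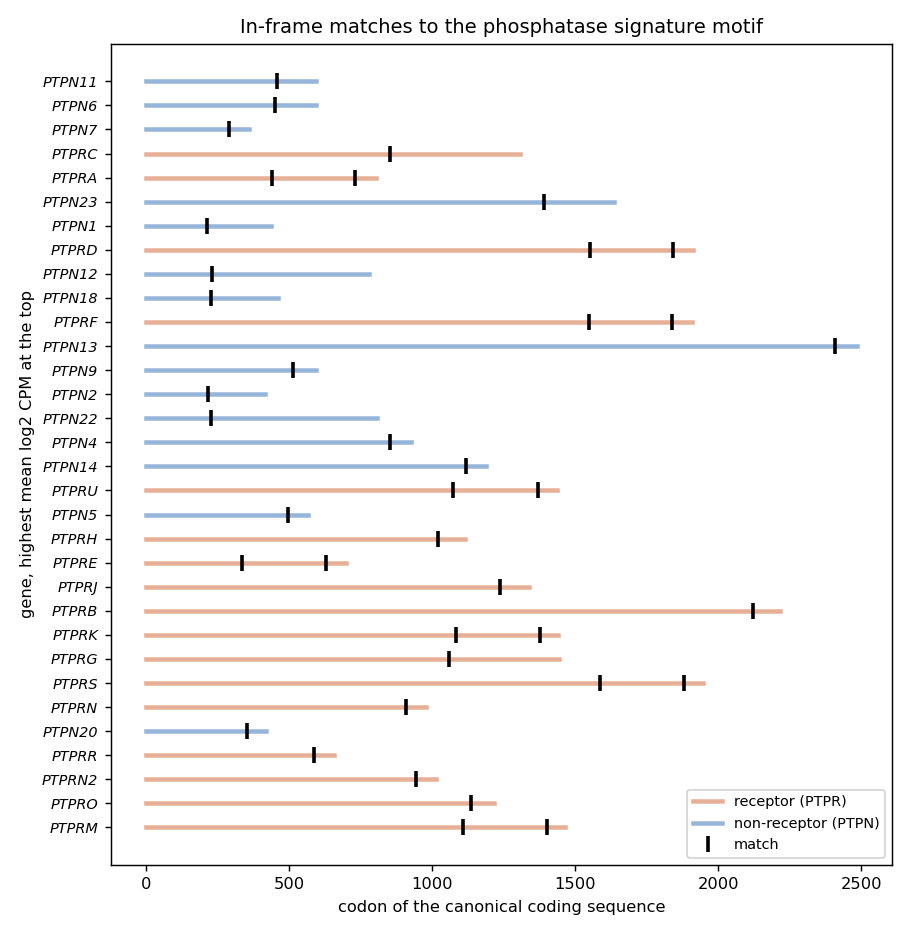
Each line is the canonical coding sequence of a member, in codons on the x axis, with the genes ordered on the y axis by mean log2 CPM, and black marks are in-frame matches to the signature motif. The 15 non-receptor genes (blue) hold 1 match each and 8 of the 17 receptor genes (orange) hold 2, the second close to the end of the coding sequence.

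Of the 32 members, 23 had a level of 1 CPM or more (71.9%), against 43.8% of all 31999 genes and 69.1% of the 16329 protein-coding genes listed. The share over the whole family was thus close to that of protein-coding genes. The receptor and non-receptor genes stood apart. In the non-receptor class 14 of 15 genes reached 1 CPM (93.3%), while in the receptor class 9 of 17 did (52.9%). The median level was a mean log2 CPM of 5.46 in the non-receptor and 0.15 in the receptor class, where the median of the protein-coding genes was 3.64. Per kb of the longest annotated transcript the medians were 10.2 CPM for non-receptor, 0.0949 CPM for receptor and 3.09 CPM for protein-coding genes. Together the 32 genes made up 1780 CPM, of which 76.3% came from the non-receptor class. The genes are not replicates of their class, so these are descriptions, and no test was made.

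**Figure D2:**
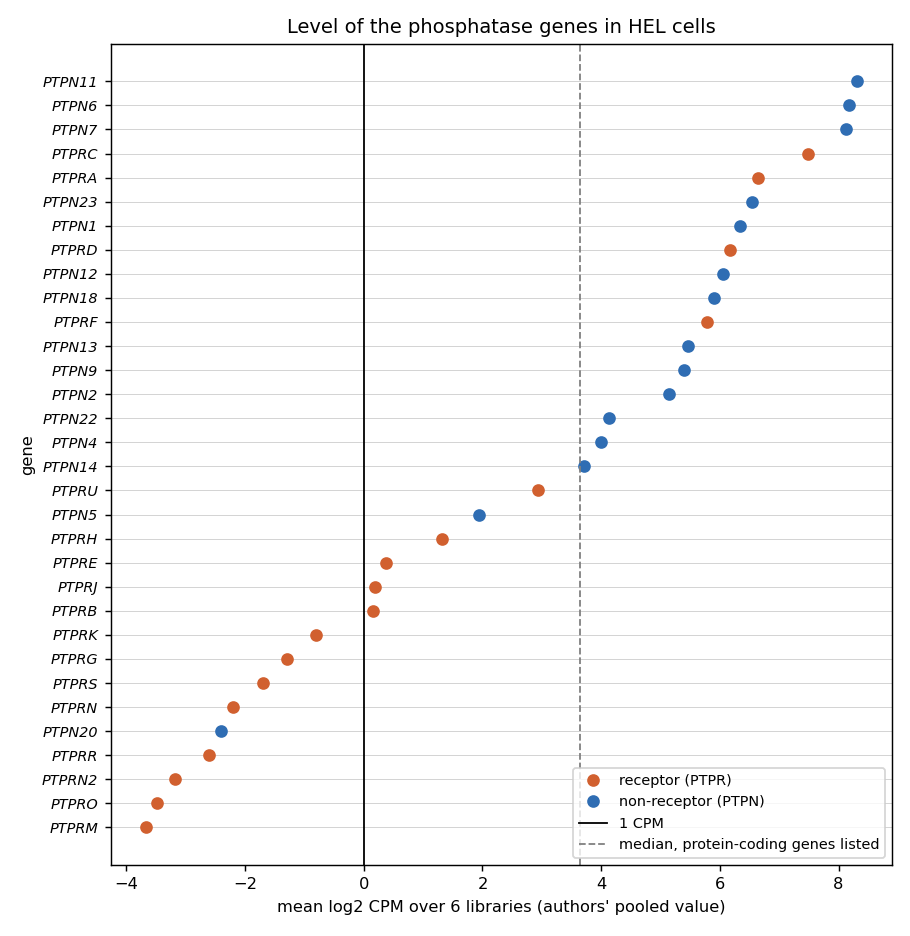
Points give the authors' mean log2 CPM over 6 libraries (x axis) of each member (y axis), with no error bars because no value per library was used. The black line marks 1 CPM, below which 8 receptor genes (orange) and 1 non-receptor gene (blue), PTPN20, are found, and the dashed line marks the median of the protein-coding genes, at 3.64.

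**Figure D3:**
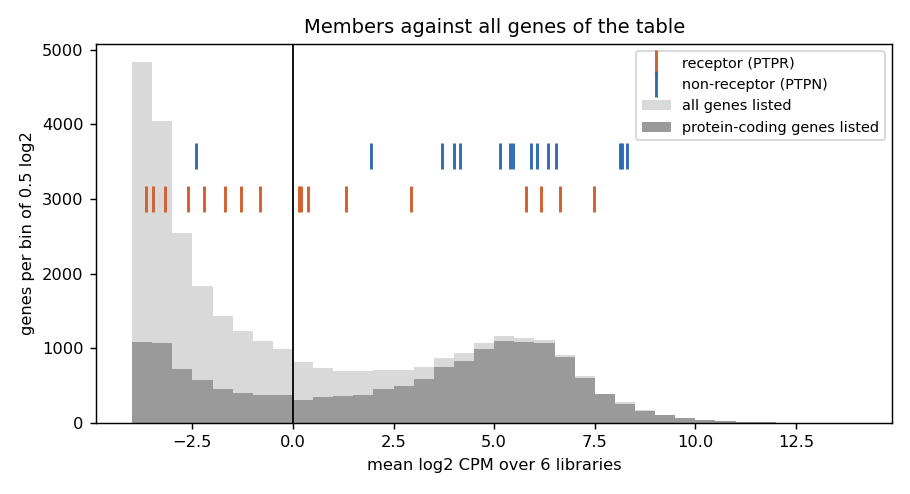
Bars count all genes listed (light) and protein-coding genes (dark) per bin of mean log2 CPM, and ticks mark the members of each class at an arbitrary height. The non-receptor ticks (blue) run from -2.40 to 8.31, with a median of 5.46. The receptor ticks (orange) run from -3.66 to 7.49, with a median of 0.15.

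The SH2 domain phosphatases had the highest CPM of the family. PTPN11 (SHP-2, which promotes RAS signaling downstream of receptor tyrosine kinases; chromosome 12, 112418351 to 112509918, plus strand) had a mean of 317.3 CPM, from about 60319 fragments in the 6 libraries. PTPN6 (SHP-1, an inhibitory phosphatase of blood cells; chromosome 12, 6946468 to 6961316, plus strand) had a mean of 290.3 CPM. Both exceeded 98% of all genes listed, at percentiles 98.4 and 98.1. Per kb of the longest transcript PTPN6 stood at 120.4 CPM and PTPN11 at 41.5 CPM, a ratio of 2.90. The longest transcript was 7.65 kb for PTPN11 and 2.41 kb for PTPN6, and per kb of coding sequence the ratio was 0.912. The order of the pair thus turned with the length used.

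PTPN7 (HePTP, a phosphatase of blood cells that binds and inactivates MAP kinases; chromosome 1, 202147013 to 202161588, minus strand) was close to them, with a mean of 277.8 CPM and 73.8 CPM per kb. The other members that bind MAP kinases through the same kind of motif were far lower. PTPN5 (STEP, known from neurons) had a mean of 3.85 CPM and 0.994 CPM per kb, from about 719.6 fragments over the 6 libraries. PTPRR had about 19.0 fragments. Per kb, PTPN7 was 74.2 times PTPN5, and the ratio was 67.2 and 113.3 with the exon union and the coding length. Within this trio, the member typical of blood cells thus made up nearly all of the transcript measured.

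The PTP1B pair was also present. PTPN1 (PTP1B, at the endoplasmic reticulum, known to act on the insulin receptor and JAK2) had 81.0 CPM and PTPN2 (TC-PTP, known to act on JAK1, JAK3 and STAT proteins) 35.4 CPM. Per kb this was 20.4 and 10.2 CPM, a ratio of 2.00, which was 4.94 per kb of exon union and 2.18 per coding kb. PTPN1 stood above PTPN2 with each of the 3 lengths. PTPN2 has processed copies in the genome, of which PTPN2P1 was listed with about 80.0 and PTPN2P2 with 21.0 fragments, against 6715 for PTPN2 itself.

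The PEST domain phosphatases, which act on the cytoskeleton and on Src family kinases, were led by PTPN12 (PTP-PEST) at 66.6 CPM and PTPN18 at 59.9 CPM, or 19.7 and 16.6 CPM per kb. Their order turned with the coding length, where PTPN12 was 0.655 times PTPN18. PTPN22 (LYP, best known for restraining T cell receptor signaling) was listed at 17.6 CPM and 4.89 CPM per kb, below PTPN12 by 4.03 times per kb.

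The remaining non-receptor genes covered a wide range. PTPN23 (HD-PTP, an endosomal sorting protein) had 93.0 CPM and 17.8 CPM per kb, and PTPN9 (with a SEC14 lipid-binding domain) 42.3 CPM and 5.39 CPM per kb. Among the FERM domain members, PTPN13 stood at 44.1 CPM and 5.14 CPM per kb, PTPN4 at 15.97 CPM and 1.44 CPM per kb, and PTPN14, which binds the coactivator YAP, at 13.1 CPM and 0.983 CPM per kb. PTPN20 was the one non-receptor gene under 1 CPM, with about 23.9 fragments in 6 libraries. Its near copy PTPN20CP was listed with 3.00 fragments, and reads shared by the copies could have been left uncounted, so the level of PTPN20 is uncertain.

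Among the receptor genes, PTPRC (CD45, which keeps Src family kinases in a state ready for activation; chromosome 1, 198638457 to 198757476, plus strand) had the highest CPM, a mean of 179.8. It made up 42.6% of the summed CPM of the receptor class. PTPRA (which activates SRC in many tissues; chromosome 20, 2873420 to 3039076, plus strand) followed with 99.5 CPM. Per kb of transcript the genes were close, PTPRC at 24.96 and PTPRA at 26.7 CPM, a ratio of 0.935, but it was 0.458 per kb of exon union and 1.11 per coding kb. Which is higher thus depends on the length. PTPRE, the nearest relative of PTPRA by its short extracellular part, had a mean of 1.29 CPM and 0.226 CPM per kb, from about 234.2 fragments.

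The LAR family, adhesion receptors best known from neurons and epithelia, was split. PTPRD (chromosome 9, 8314246 to 10613002, minus strand) had 72.0 CPM and PTPRF (LAR itself) 54.9 CPM, while PTPRS rested on about 46.9 fragments over 6 libraries. Per kb PTPRD stood at 6.93 and PTPRF at 7.12 CPM, the highest receptor genes after PTPRA and PTPRC, and PTPRD was 1.22 and 1.31 times PTPRF with the exon union and the coding length. In fragments per kb of transcript PTPRD was 206.4 and PTPRF 212.0 times PTPRS. In CPM, PTPRD exceeded 89.7% and PTPRF 86.8% of all genes listed, and 80.5% and 74.9% of the protein-coding genes. Per kb of transcript they exceeded 62.2% and 62.7% of the protein-coding genes.

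The other receptor families were low. Of the MAM domain receptors, which bind to their own kind on neighbouring cells, PTPRU had 7.65 CPM and 1.37 CPM per kb, PTPRK about 96.3 fragments and PTPRM 3.00. A count of 3.00 gives an exact Poisson interval of 0.619 to 8.77 fragments, so PTPRM cannot be told from traces. Of the receptors with fibronectin repeats and a single catalytic domain, PTPRH was at 2.496 CPM, PTPRJ (CD148, a Src activator of platelets and leukocytes) at 1.15 CPM and PTPRB (VE-PTP of endothelium) at 1.11 CPM, and PTPRO had 4.99 fragments. Per kb of transcript PTPRH stood at 0.636, PTPRJ at 0.144 and PTPRB at 0.0900 CPM. In fragments over the 6 libraries, the exact Poisson interval of PTPRB, 172.3 to 228.7, holds the 178.1 that correspond to 1 CPM, and that of PTPRJ, 178.8 to 236.1, lies just above. The highest member under it, PTPRK, had a mean log2 CPM of -0.81.

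PTPRG, of the carbonic anhydrase-like pair, had about 65.9 fragments. Its exons overlap those of the antisense gene PTPRG-AS1 over 9.18% of their length, the largest such overlap among the 32 members. For PTPRB, which lay near the line of 1 CPM, the overlap with genes on the other strand was 8.97%. PTPRG-AS1 was listed with 188.2 fragments. The paper's methods name a directional library workflow for the HEL cells, but whether counting used strand is not given in the sources used here. PTPRN and PTPRN2, proteins of the secretory granules of endocrine cells and neurons that lack the usual phosphatase activity, had about 29 and 9 fragments. Of the 17 receptor genes, 4 rested on at most 20 fragments in all 6 libraries (PTPRR, PTPRN2, PTPRO and PTPRM). None of the 15 non-receptor genes did, but the lowest, PTPN20, was close to this line, with about 23.9. Of all genes listed 34.1%, and of the protein-coding genes 16.8%, lay below PTPRR, the highest of the 4. The difference between the classes was not tested. The intervals cover counting error only and not the spread between libraries.

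Within the receptor class, levels were also set beside the number of matches to the signature. Of the 8 receptor genes with 2 matches, 5 had 1 CPM or more and their median was 0.799 CPM per kb. Of the 9 with 1 match, 4 had 1 CPM or more, with a median of 0.0476 CPM per kb. PTPRC, the receptor gene with the highest CPM, is among the latter. The median of 0.0476 CPM per kb was the value of PTPRR, from about 19.0 fragments, so part of it is the assumed prior. Of the protein-coding genes listed, 69.1% had 1 CPM or more. Whether the level goes with the number of matches was not tested.

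**Figure D4:**
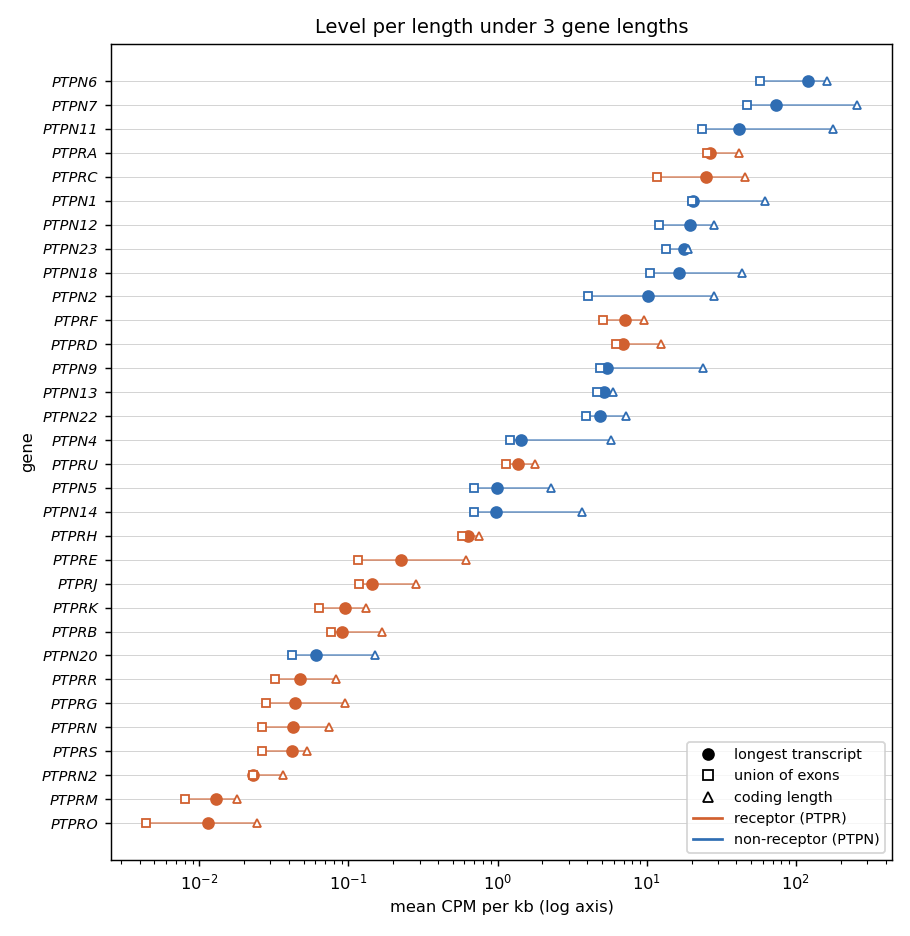
Points give the mean CPM per kb of each member on a log axis, for 3 definitions of gene length (filled circles, longest transcript; squares, union of exons; triangles, coding length), joined by a line. The length moves single genes, for example PTPN11 from 23.6 to 178.4 CPM per kb, while the receptor genes other than PTPRA, PTPRC, PTPRD, PTPRF and PTPRU stay below 1 CPM per kb with each length.

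The genes around the phosphatases were counted in lists made from general knowledge. Beside these counts, 43.8% of all 31999 genes and 69.1% of the 16329 protein-coding genes listed had 1 CPM or more. The median log2 CPM of the protein-coding genes was 3.64. Of 11 Src and Syk family kinases and CSK, 7 were above 1 CPM, with a median log2 CPM of 3.98. CSK, the kinase that holds Src kinases inactive and so opposes CD45, had 330.2 CPM, LYN, the main Src family kinase of many myeloid cells, 322.3 CPM, and SYK 162.4 CPM. LCK, the Src kinase of T cells on which CD45 is best known to act, had 5 fragments in the 6 libraries, and ZAP70 19. Per kb of transcript LYN stood at 54.9 and SYK at 32.5 CPM.

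The JAK and STAT genes, on whose products PTPN1, PTPN2 and PTPN6 are known to act, were all above 1 CPM, 8 of 8, with a median log2 CPM of 8.31. STAT3 (570.3 CPM), STAT5A (541.9 CPM) and JAK2 (392.7 CPM) were the highest. Per kb of transcript JAK2 stood at 55.9 and STAT5A at 126.0 CPM, beside 120.4 CPM for PTPN6.

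Of 16 receptors and adaptors that bind the SH2 domains of PTPN6 or PTPN11, 8 were above 1 CPM, with a median log2 CPM of 0.56. MPIG6B (G6b-B, the inhibitory receptor of megakaryocytes and platelets) had 289.5 CPM, PECAM1 151.6 CPM and CD33 90.8 CPM. Of the 8 below 1 CPM, PDCD1 was the lowest, with 2.00 fragments in the 6 libraries. Per kb of transcript MPIG6B stood at 120.8 CPM.

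Of 8 MAP kinases, 7 were above 1 CPM, with MAPK14 (p38 alpha) at 180.8 CPM and MAPK9 at 44.6 CPM among the highest. The phosphatases outside the PTPN and PTPR families were present as well, 4 of 5 above 1 CPM. PTP4A2 had 530.9 CPM, ACP1 157.1 CPM and PTP4A3 42.6 CPM.

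**Figure D5:**
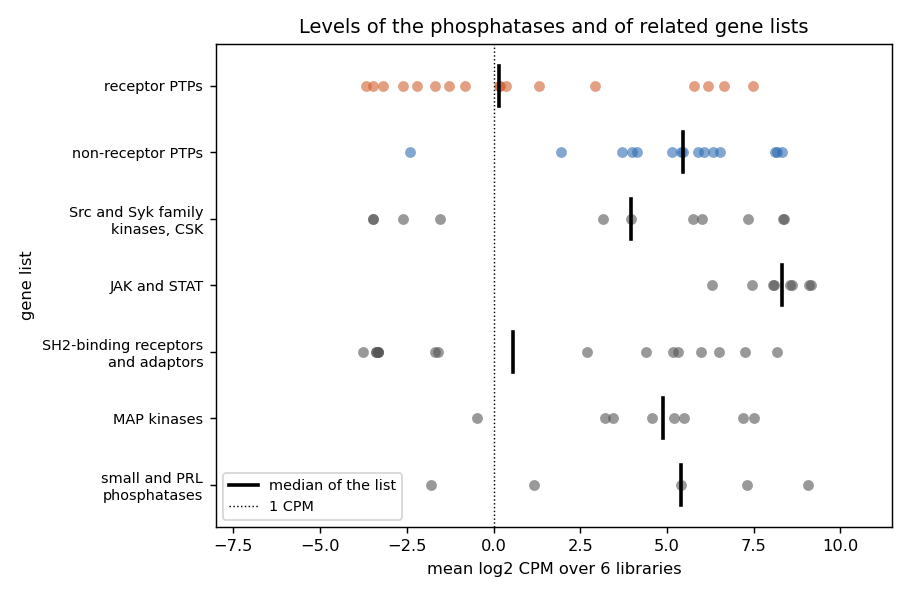
Each point is the mean log2 CPM of a gene over 6 libraries, by list, with the list's median as a black bar and 1 CPM as a dotted line. The JAK and STAT genes all lie at 6.30 or above, while the receptor phosphatases and the SH2-binding receptors and adaptors reach from near the floor to above 7.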

How the data were processed

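RNA from 3 shCtrl and 3 shTMIGD2 HEL libraries was compared by the authors, and samples were grouped by the hairpin in their labels. Reads were aligned by the authors to hg38 with STAR 2.6.1b and counted per gene with HTSeq 0.6.1 on a refSeq annotation, and the submitters' processing notes also name edgeR and DESeq2 (listed by the authors as version 3.11). The authors' deposited table gives a mean log2 CPM for each of 31999 genes, the only value used. Its other columns hold the authors' own comparison (log2 fold change, F, p-value and adjusted p-value) and were not used. The edgeR test that had been planned was not run, as it takes counts for each library. For DESeq2, the paper's methods state that genes averaging under 1 read in both groups were left out by the authors. The table does not follow this filter if the prior is as assumed here, since it then lists genes with 2 fragments in all. Its own filter and prior count are not given in the sources used here.

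The members and lists were chosen with earlier results of these data known. Every member was to be named, those at 1 CPM or more with level and level per length, and of each further list the 3 highest genes, of which 1 is not reported here. LCK, ZAP70 and PDCD1 were added after their values were seen. Levels in CPM were divided by the longest transcript of GENCODE 44, on GRCh38 as for hg38, to which 22805 symbols (71.3%) and all 32 members matched. Alternatives were the exon union and the coding length. Fragments were computed as CPM over the step, less 12 prior counts, with exact 95% Poisson intervals. The motif was searched in canonical coding DNA, in place of the planned RefSeq proteins, which were not used here. Python 3.11.15 and scipy 1.17.1 were used.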

Additional observations from a re-analysis of the deposited data

How the results depend on the processing

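The counts of members above the line kept within 1.5 times of the reported ones. Of 32 members, 20 to 24 lay above it with a line at 2 CPM, at 0.5 CPM or at the upper 40% of all genes listed, against 23. For the receptor class the range was 6 to 10, against 9, and for the non-receptor class 14 each time. The median log2 CPM of the non-receptor class exceeded that of the receptor class by 5.32, and by 2.75 with only members at 1 CPM or more, since this leaves out 8 low receptor genes and 1 non-receptor gene. Per kb of exon union the median was 0.0762 CPM in the receptor and 4.88 CPM in the non-receptor class. Per kb of coding length, an alternative chosen after seeing the data, the medians were 0.167 and 23.8 CPM. The longest transcript gave 0.0949 and 10.2 CPM. Of the 10 members with the highest level per kb, 9 were also in the upper 10 with the exon union and 9 with the coding length. No paired analysis was possible because the value used has no values per library. Leaving out libraries, DESeq2 in place of edgeR and other count filters were not run for the same reason. Depth limits the genes under 1 CPM, which rest on 3.00 to 96.3 fragments in the 6 libraries.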

Other observations

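PTPRVP, a transcribed unitary pseudogene of the receptor family that the naming rule leaves out, was listed with a mean log2 CPM of 2.39, or about 982.1 fragments over the 6 libraries. It lies on chromosome 1 from 202168051 to 202189455 (GRCh38, plus strand), 6462 bases from PTPN7, which is on the other strand. PTPN7 itself had about 52806 fragments.

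PTP4A1, a phosphatase of the PRL family, was listed with a mean log2 CPM of -1.81, where PTP4A2 of the same family had 9.05.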
